A study of Mus musculus with 6 samples.

Results

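The 10 genes described here encode the lysosomal proteases that cut antigens for presentation on class II MHC and the proteins that work beside them. They are the cathepsin genes Ctsb, Ctsc, Ctsd, Ctsh, Ctsl, Ctss and Ctsz, the legumain gene Lgmn, the thiol reductase gene Ifi30 and the cystatin C gene Cst3. They were picked out by symbol and by no threshold on measured values, although earlier results of these data were known when the set was drawn up. All 10 were found among the 51810 genes of the deposited series table and among the 28543 genes that were tested. None passed the filter on low counts through a single group, since each was well above it in all 6 libraries.

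The libraries are poly(A) RNA sequencing of mouse thymus cells labelled mTEChi, the mature medullary epithelial cells with high class II MHC, from mice aged 4 to 5 weeks. Each library held RNA of 75000 cells sorted from an EpCAM-enriched thymus digest. The control group has 3 libraries labelled P53-NoCre with the genotype P53-WT (WT). The other group has 3 libraries labelled with the genotype P53-cKO (cKO), a conditional knockout of Trp53, the gene of the transcription factor p53. The labels name neither the Cre driver nor the strain, and they give no treatment.

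Class II MHC molecules carry peptides that were cut in endosomes and lysosomes. In that compartment, proteases also remove the invariant chain, which blocks the peptide groove until it has been digested. In the mouse thymus, cathepsin L is the known invariant chain protease of cortical epithelium and cathepsin S that of bone marrow-derived antigen presenting cells. Medullary epithelium presents self peptides on class II MHC to developing CD4+ T cells.

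The label of the cells was checked against marker genes. Aire, the transcription factor of mature medullary epithelium, lay at 861.2, 747.9 and 704.1 TPM (the deposited transcript level, scaled by gene length and library) in WT and at 495.2, 705.3 and 680.0 TPM in cKO, and did not pass the test between genotypes (log2 fold change, cKO over WT, -0.32, SE 0.123, adjusted p = 0.516, edgeR). The class II chain gene H2-Aa lay between 4928 and 5472 TPM. Psmb11, the proteasome subunit of cortical epithelium, lay between 5.57 and 9.18 TPM. Other genes of the cortical list were higher, with Tbata at 450.3 to 608.8 TPM and means of 140.7 TPM for Ccl25 and 118.6 TPM for Foxn1. The 10 cortical genes summed to 917.2 to 1055 TPM in WT and 816.5 to 923.0 TPM in cKO. The low level of Psmb11 thus does not show that cortical genes were absent. The count of Trp53 was 5351, 4837 and 5314 in WT against 386, 361 and 369 in cKO. Its log2 fold change (cKO over WT, as everywhere below) was -3.81, with SE 0.0999 and an adjusted p of 5.76e-10 by the edgeR quasi-likelihood test with Benjamini-Hochberg adjustment. Reads from Trp53 exons that the deletion spares would be part of these counts. Total counts ran from 45457892 to 50128045 per library, and a floor of 3 counts equals 0.0598 to 0.0660 CPM, the count scaled by library size. Over all genes tested 17 passed an adjusted p of 0.05, which is 0.0596%.

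The promoter windows of 3 genes of unlike role are shown, each with a motif match in capitals, of the same motif in Ctsd and Ifi30. Each gives the 250 bases before the RefSeq start on GRCm38.p6, 5′ to 3′ on the gene's strand. Capitals mark the interferon-stimulated response element (GAAA, any 2 bases, GAAA) in Ctss (chr3:95526536-95526785, plus strand). In Ctsd (chr7:142387828-142388077, minus strand) and Ifi30 (chr8:70766664-70766913, minus strand) they mark CACGTG, the E-box core of the CLEAR element that lysosomal genes are known to share.
Ctss: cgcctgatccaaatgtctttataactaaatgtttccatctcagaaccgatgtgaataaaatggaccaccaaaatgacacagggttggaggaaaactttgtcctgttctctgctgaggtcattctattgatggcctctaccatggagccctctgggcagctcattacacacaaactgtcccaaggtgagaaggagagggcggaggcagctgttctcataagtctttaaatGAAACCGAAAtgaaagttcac
Ctsd: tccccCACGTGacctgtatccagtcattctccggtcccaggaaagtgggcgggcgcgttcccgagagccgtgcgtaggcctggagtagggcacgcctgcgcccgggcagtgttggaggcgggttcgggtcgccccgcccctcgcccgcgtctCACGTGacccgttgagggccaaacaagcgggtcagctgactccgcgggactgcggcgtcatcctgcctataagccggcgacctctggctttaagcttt
Ifi30: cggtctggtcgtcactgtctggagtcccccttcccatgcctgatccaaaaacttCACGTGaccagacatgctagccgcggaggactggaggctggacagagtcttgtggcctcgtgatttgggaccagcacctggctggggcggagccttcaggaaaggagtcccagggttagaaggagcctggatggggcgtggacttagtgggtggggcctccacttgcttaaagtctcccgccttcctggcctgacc

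Of the 10 genes, 8 had a window of 300 bases, from 250 before to 50 after a start site. Both strands were searched, and the motifs did not overlap one another in the windows shown. CACGTG was found in the windows of Ctsd, Ifi30, Ctsl and Lgmn, 4 of 8 genes, and in 7.15% of all 32851 windows. In Ctsd it occurred at -245 and at -98 from the start site, in Ifi30 at -196, in Ctsl at -236 and in a second start of Lgmn at -49. The interferon element was found in Ctss only, at -21, against 3.44% of all windows. The GAS element TTCNNNGAA was found in Ctsc only, against 8.3% of windows. GGGCGG, the GC box, was present in 7 of 8 genes and in 35.7% of windows. The windows with a GC box held 60.3% to 67.3% G and C bases, except Ctss at 44%, against a median of 52.7% over all windows. The shares were not matched for this content. TATAAA was present in Ctss and Lgmn and in 13.6% of windows. The p53 response element was found in none of the 8, and in 0.0731% of all windows. The member counts are of genes, with all windows of a gene pooled, whereas the percentages are of windows, 32851 over 27025 genes. The Ctsd gene model of the count files starts at 142388038, inside the window shown. The Ctsl window (chr13:64370471-64370770) lies wholly inside its gene model, which starts at 64370890 on the minus strand. The second Lgmn window (chr12:102439043-102439342) also lies inside its gene model, which starts at 102439813. The last bases of that Lgmn window were found in no GENCODE transcript of the gene. These matches describe the letters of the windows and were not tested for binding.

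The carboxypeptidase gene Ctsz (chr2:174427493-174439039, mm10, minus strand) and Ifi30 (chr8:70762774-70766663, minus strand), whose product reduces the disulfide bonds of antigens, had the highest levels. Ctsz stood at 608.9, 742.4 and 760.6 TPM in WT libraries 1 to 3 and at 679.7, 778.6 and 804.6 TPM in cKO libraries 1 to 3. Ifi30 stood at 600.2, 762.5 and 750.3 TPM in WT and at 684.4, 790.9 and 774.0 TPM in cKO. In both genes library 1 was the lowest of its group, and the groups overlapped. Their ranks among all genes of the series table were 148 and 149. The log2 fold change was 0.07 (SE 0.107, adjusted p = 0.901) for Ctsz and 0.06 (SE 0.109, adjusted p = 0.922) for Ifi30, and neither passed the test. Some Ifi30 counts may come from the gene 6330537M06Rik on the other strand, which shares 8.66% of its exon bases and had a count of 15.1% of that of Ifi30, since strand was ignored in counting.

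The endopeptidases were led by Ctss (chr3:95526786-95556403, plus strand), the gene of cathepsin S. Its levels were 262.7, 428.4 and 315.7 TPM in WT and 375.0, 462.5 and 395.4 TPM in cKO. WT libraries 1 and 3 lay below every cKO library and WT library 2 lay above cKO libraries 1 and 3. The mean was 335.6 ± 84.7 TPM (SD, n = 3) in WT and 411.0 ± 45.8 TPM (SD, n = 3) in cKO. This was the largest difference among the 10 genes, 0.26 on the log2 scale (SE 0.185, 95% interval -0.17 to 0.69, adjusted p = 0.76, edgeR), and it did not pass the test. Without WT library 1 the log2 fold change was 0.09, and without WT library 2 it was 0.50; neither passed.

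Ctsl (chr13:64359337-64370890, minus strand), the gene of cathepsin L, lay at 89.4, 75.58 and 84.0 TPM in WT and at 116.0, 78.55 and 81.61 TPM in cKO. A single library, cKO library 1, stood above the rest, and the other 5 fell between 75.58 and 89.4 TPM. The log2 fold change was 0.13 (SE 0.13, adjusted p = 0.849), and without that library it was -0.07. The ratio of Ctsl to Ctss, on the TPM scale, was 0.340, 0.176 and 0.266 in WT and 0.309, 0.170 and 0.206 in cKO. Its mean was 0.261 ± 0.0821 (SD, n = 3) in WT and 0.229 ± 0.0723 (SD, n = 3) in cKO, a difference that an exact 2-sided permutation test did not separate (p = 0.6, smallest possible p 0.1). Without WT library 1 the difference was 0.00726, of the opposite sign. Every library had more Ctss than Ctsl per exon base.

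Ctsd (chr7:142375911-142388038, minus strand), the aspartic protease of lysosomes, lay at 137.8, 125.4 and 144.0 TPM in WT and at 146.8, 161.5 and 147.8 TPM in cKO. On the TPM scale the cKO libraries were all above the WT libraries, but on the scaled counts used for the test the groups overlapped. The mean was 135.8 ± 9.46 TPM in WT and 152.0 ± 8.20 TPM in cKO (SD, n = 3 each). Ctsd had the smallest p of the 10 genes, 0.102 before adjustment, at 0.14 on the log2 scale (SE 0.0794, 95% interval -0.03 to 0.31, adjusted p = 0.682, edgeR). The protein-coding gene model Gm49369 shares 34.4% of its exon bases on the same strand and holds a count of 44.8% of that of Ctsd. With the counts of Gm49369 subtracted, a step added after the data were seen, the log2 fold change of Ctsd was 0.03. A read in the shared bases was counted for both genes, so this step can also remove reads of Ctsd itself. It therefore does not show which gene the difference came from. The 3 genes nearest to Ctsd across the 6 libraries, of 12845 with at least 10 CPM, were Apeh, Rint1 and Lingo1. The root mean square difference of their centred log2 levels from those of Ctsd was 0.026, 0.029 and 0.029.

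Ctsb (chr14:63122462-63145923, plus strand), whose product cuts inside chains and also trims dipeptides from their ends, lay at 84.72, 99.2 and 90.07 TPM in WT and at 99.4, 103.2 and 102.8 TPM in cKO. The gap between the highest WT and the lowest cKO library was 99.2 against 99.4 TPM, and on scaled counts the groups overlapped. Its log2 fold change was 0.13 (SE 0.0867, 95% interval -0.06 to 0.32, adjusted p = 0.731). Ctsb shares 12.8% of its exon bases with Fdft1 on the other strand, whose count was 15.0% of that of Ctsb. Lgmn (chr12:102394084-102439813, minus strand), the endopeptidase that cuts after asparagine, was the lowest of the 10 at 18.48, 16.25 and 14.93 TPM in WT and 17.69, 15.3 and 15.52 TPM in cKO. Library 1 was the highest of its group in both genotypes, and the groups overlapped. The log2 fold change was -0.06 (SE 0.122, adjusted p = 0.945).

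Among the exopeptidases, Ctsh (chr9:90054152-90076089, plus strand), an aminopeptidase, lay at 133.2, 173.7 and 173.5 TPM in WT and at 147.0, 200.9 and 196.1 TPM in cKO. Library 1 was the lowest of both groups and the groups overlapped. The log2 fold change was 0.15 (SE 0.149, adjusted p = 0.844), and without WT library 1 it was 0.02. Ctsc (chr7:88278085-88310888, plus strand), the dipeptidyl peptidase that activates granule serine proteases, lay at 67.33, 75.28 and 63.5 TPM in WT and at 64.83, 76.27 and 72.79 TPM in cKO. These values interleaved, and the difference was 0.03 on the log2 scale (SE 0.0946, adjusted p = 0.967).

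Cst3 (chr2:148871722-148875692, minus strand) encodes cystatin C, a secreted inhibitor of cysteine proteases. It lay at 388.4, 538.6 and 517.2 TPM in WT and at 364.2, 483.8 and 532.3 TPM in cKO. Library 1 was low in both groups, and the groups overlapped over almost their whole range. The log2 fold change was -0.09 (SE 0.179, 95% interval -0.51 to 0.32, adjusted p = 0.938). Set against the summed TPM of the 7 cysteine proteases (Ctsb, Ctsc, Ctsh, Ctsl, Ctss, Ctsz and Lgmn), Cst3 stood at 0.307, 0.334 and 0.344 in WT and at 0.243, 0.282 and 0.319 in cKO. The mean ratio was 0.329 ± 0.0193 (SD, n = 3) in WT and 0.281 ± 0.0381 (SD, n = 3) in cKO. The highest cKO library lay inside the WT range, and the exact 2-sided permutation test gave p = 0.2.

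**Figure D1:**
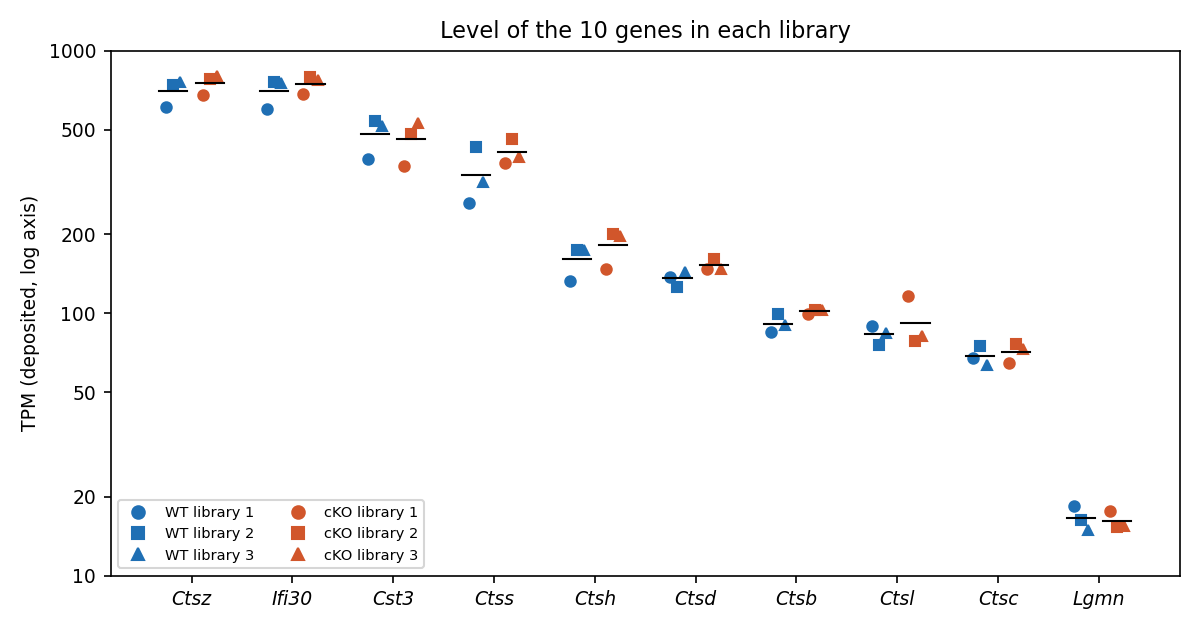
Deposited TPM (log axis) of the 10 genes in each library, with colour for the genotype, marker shape for the library number and a black bar for the mean of 3 libraries. Ctsz and Ifi30 lie between 600.2 and 804.6 TPM and Lgmn between 14.93 and 18.48 TPM, and for each gene the highest of the 6 libraries is 1.2 to 1.76 times the lowest.

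Ordered by the mean TPM of 6 libraries, Ctsz (729.1) and Ifi30 (727.0) were followed by Cst3 (470.8), Ctss (373.3), Ctsh (170.8), Ctsd (143.9), Ctsb (96.57), Ctsl (87.52), Ctsc (70.0) and Lgmn (16.36). Ctsz exceeded Ifi30 in 3 of 6 libraries, so these neighbours were not separated. Cst3 exceeded Ctss in 5 libraries, Ctsh exceeded Ctsd in 5 and Ctsb exceeded Ctsl in 4, with overlapping ranges. Ifi30 over Cst3, Ctss over Ctsh, Ctsd over Ctsb and Ctsc over Lgmn held in all 6 libraries with ranges that did not overlap.

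That order depended on the length by which the counts were divided. The deposited TPM used all exon bases of a gene, 6489 for Ctsl, whereas its principal transcript in the GENCODE annotation has 1971 bases. Divided by principal transcripts, a choice made after the data were seen, Ctsl stood at 288.1, Ctsh at 475.1 and Ctsc at 163.1 on the same scale. Ctsh then stood above Ctss (374.1) in all 6 libraries, Ctsc (163.1) no longer stood below Ctsd (159.0), and Cst3 (693.0) was not separated from Ifi30. The mean ratio of Ctsl to Ctss became 0.857 in WT and 0.751 in cKO, and Ctss exceeded Ctsl in 4 of 6 libraries. The files do not show which transcripts the cells made. By either length Lgmn was the lowest of the 10, and Ctsz and Ifi30 had the highest means without being separated from each other.

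**Figure D2:**
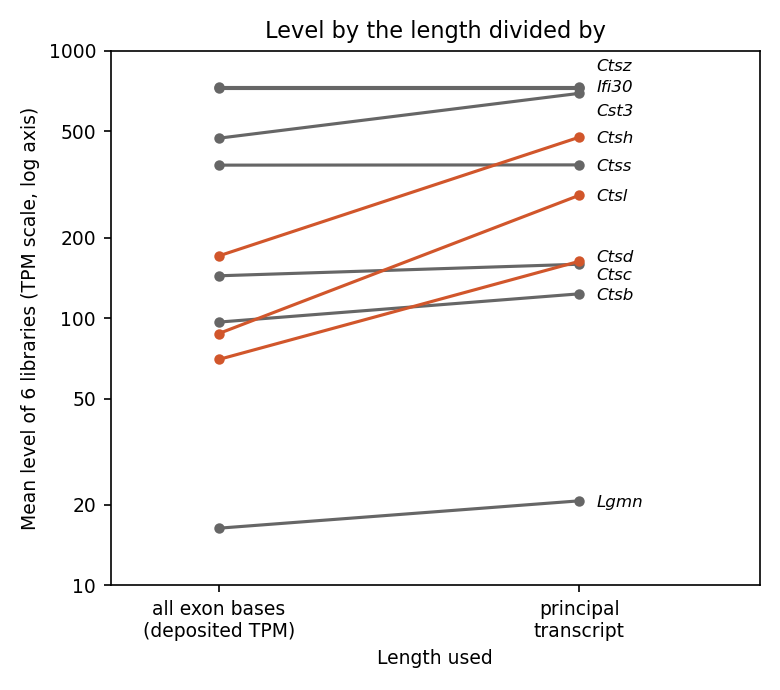
Mean level of 6 libraries on the TPM scale (log axis) when counts are divided by all exon bases (left, as deposited) or by the principal transcript (right). Orange lines mark Ctsh, Ctsl and Ctsc, which move to 475.1, 288.1 and 163.1, by more than 1.5 times.

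Across the group as a whole, 0 of the 10 genes passed an adjusted p of 0.05, where 0.0596% of all genes tested passed. At an unadjusted p under 0.05 the count was also 0 of 10 with edgeR, against 8.51% of all genes, and DESeq2 and limma-voom called 0 after adjustment. On scaled counts the groups overlapped for all 10, where 14.4% of all genes had groups that did not overlap. The log2 fold change was above 0 for 8 of 10 genes, against 49% of all genes tested, and its median was 0.10 against -0.005 over all genes. Of the 95% intervals of the fold, cKO over WT, the highest upper bound was 1.61, for Ctss, and the lowest lower bound was 0.704, for Cst3. A p above the threshold does not show that the genotypes are alike within those bounds. As these are bulk samples, fewer cells of a type and less RNA per cell cannot be told apart.

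**Figure D3:**
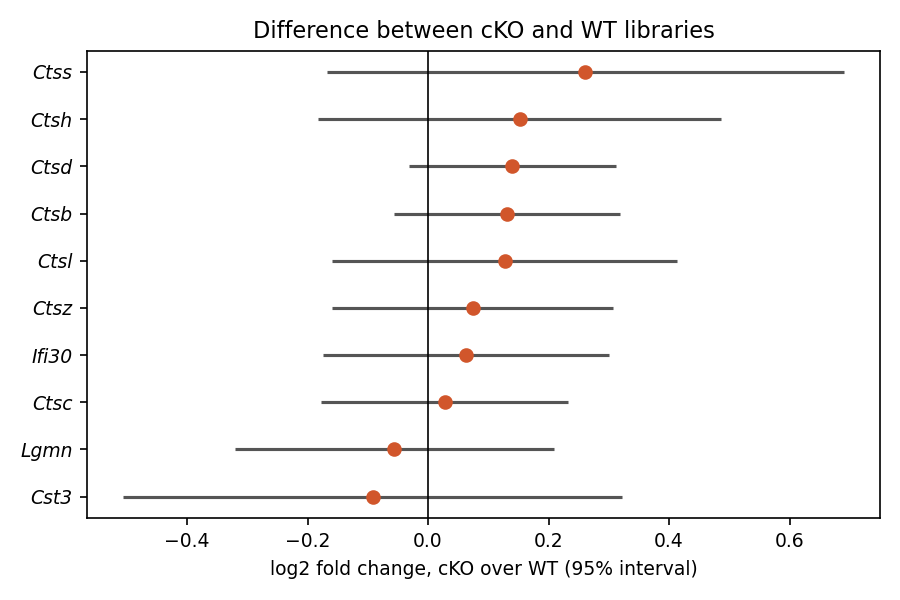
Log2 fold change of each gene, cKO over WT, from the edgeR fit (points) with its 95% interval (lines). All 10 intervals include 0, from Ctss at 0.26 to Cst3 at -0.09.

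The 10 genes also varied between libraries of the same genotype. The coefficient of variation of TPM over 6 libraries was highest for Ctss, 19.7%, and lowest for Ctsb, 7.76%. WT library 1 was the lowest of all 6 libraries for 5 genes, Ctsb, Ctsh, Ctss, Ctsz and Ifi30, and cKO library 2 was the highest for 6. Library 1 lay below both others of its group for 6 genes in WT and for 8 in cKO. Over all 27707 tested genes with a TPM the same held for 27.4% in WT and 32.9% in cKO. For 6 genes, Ctsb, Ctsh, Ctss, Ctsz, Ifi30 and Cst3, it held in both groups, against 12.5% of all genes. Ctsl and Lgmn went the other way, with library 1 above both others in each group. The summed TPM of the 10 genes was 2391, 3037 and 2914 in WT and 2695, 3151 and 3123 in cKO. Without WT library 1 the number of genes above 0 was 6 of 10 and the median log2 fold change was 0.01, with Ctsz at -0.04 and Ifi30 at -0.06.

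The summed macrophage markers were also lowest in library 1 of each group, and they were not alone in this. The same held for the summed class II, mature medullary, dendritic, B cell, other cathepsin, other peptidase and protease inhibitor lists described below. The class II sum was 38772, 41583 and 42019 TPM in WT and 39872, 40910 and 41421 TPM in cKO. It did not hold for the hydrolase, proton pump, delivery, cortical, thymocyte, stromal, red cell and microfold lists. The summed TPM of 14 macrophage and monocyte markers was 971.3, 1268 and 1206 in WT and 1163, 1339 and 1678 in cKO. Most of this sum was Lyz2, the lysozyme gene, at 769.3 to 1412 TPM. Without Lyz2 the other 13 summed to 202.0 to 268.2 TPM in WT and 202.9 to 266.2 TPM in cKO, again with library 1 the lowest of each group. The defining macrophage genes were low but not at 0, with Csf1r, the receptor of a macrophage growth factor, at 14.77 to 17.93 TPM and the Fc receptor gene Fcgr1 at 0.121 to 0.377 TPM. The 10 dendritic cell markers summed to 109.2, 178.5 and 116.3 TPM in WT and 112.4, 190.2 and 136.5 TPM in cKO, led by the chemokine receptor gene Ccr7. Without Ccr7 the other 9 summed to 38.85, 44.58 and 37.25 TPM in WT and 33.79, 42.06 and 35.4 TPM in cKO, so library 1 was then the lowest in cKO but not in WT. None of the macrophage and dendritic markers was at 0 in all libraries, and the ranges of both sums overlapped between genotypes. Their part in the level of the 10 genes was not tested.

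**Figure D4:**
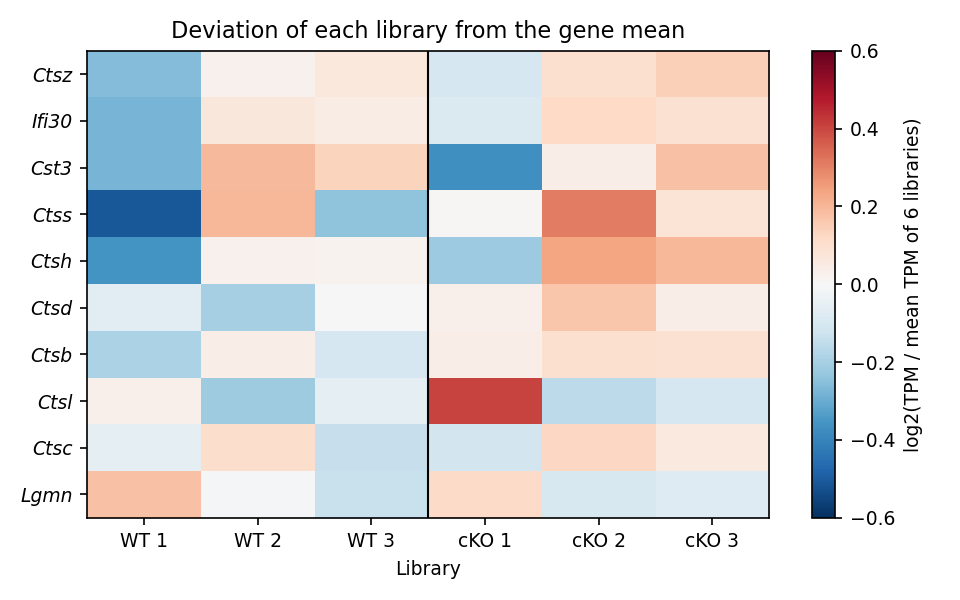
Log2 of each library's TPM over the mean of 6 libraries for the same gene, with a line between WT and cKO libraries. WT library 1 is low for Ctss, Ctsh, Ifi30, Cst3 and Ctsz, and Ctsl stands out in cKO library 1 at 116.0 TPM.

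The other genes of the lysosome and of antigen presentation gave 0 calls in each of 7 lists, with edgeR and under each of the 17 alternatives, DESeq2 and limma-voom included. The 29 lysosomal hydrolases of sugars and lipids and their activators were above 0 in 26 cases, with a median log2 fold change of 0.10. Of these 29, groups did not overlap for 9, all higher in cKO, against 7.2% of all genes in that direction, and 6 had an unadjusted p under 0.05, against 4.28%. Their summed TPM was 2420 to 2438 in WT and 2677 to 2758 in cKO, so the sums did not overlap. The largest part was Psap, the precursor of the saposins that help lipid hydrolases, with 1040, 998.9 and 1016 TPM in WT and 1236, 1183 and 1160 TPM in cKO. All 3 cKO libraries of Psap were above all 3 WT libraries, a difference of 0.21 on the log2 scale (SE 0.0677) that did not pass the test (adjusted p = 0.42). Without Psap, the other 28 summed to 1396 to 1422 TPM in WT and 1517 to 1573 TPM in cKO. The number of hydrolases above 0 was 21 without WT library 1, and their median was then 0.07.

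Of 8 other lysosomal and endosomal peptidases, 6 were above 0, with a median of 0.21, and 2 had an unadjusted p under 0.05. Over all genes tested 8.51% had an unadjusted p under 0.05 in either direction, and the same share stands beside each list that follows. Their smallest p belonged to Napsa, the gene of the aspartic protease napsin A, which lay at 25.48, 29.70 and 33.79 TPM in WT and 33.94, 40.13 and 43.59 TPM in cKO. Its log2 fold change was 0.38 (SE 0.132, adjusted p = 0.452). Some Napsa counts may come from Gm15396 on the other strand, which shares 18.9% of its exon bases and had a count of 26.4% of that of Napsa. The 22 subunits of the proton pump that acidifies lysosomes had a median of 0.04 with 15 above 0 and 2 at an unadjusted p under 0.05, and their sums were 1452 to 1521 TPM in WT and 1524 to 1580 TPM in cKO. With a library left out the median ran from 0.01, without cKO library 3, to 0.10, without WT library 2. The smallest p among them was that of Atp6v1g3, with 2.12 ± 0.355 TPM in WT and 3.94 ± 1.10 TPM in cKO (SD, n = 3 each), a difference of 0.88 on the log2 scale (SE 0.257, adjusted p = 0.353). Of 17 genes for lysosomal membranes, enzyme sorting and lysosomal transcription factors, 9 were above 0, with a median of 0.01 and 1 at an unadjusted p under 0.05; the median ran from -0.02 to 0.04 with a library left out. Mitf, a transcription factor related to TFEB, had the smallest p there (2.23 ± 0.152 TPM in WT and 1.53 ± 0.071 TPM in cKO, SD, n = 3 each, adjusted p = 0.339).

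Of 16 other cathepsins listed, 14 were tested and 6 of them were above 0, with a median of -0.08. Of the 14 tested, 2 had an unadjusted p under 0.05, against 8.51% of all genes tested. Of the 16 listed, 5 had a mean TPM under 1. Ctsa, the carboxypeptidase that protects other lysosomal enzymes, was the highest of them at 41.96 to 53.48 TPM, above Lgmn. The median rested on single libraries: it was -0.20 without WT library 1 or without cKO library 3 (2 of 14 above 0 in the latter) and 0.05 without cKO library 1 (8 of 15 above 0). Ctsg, a granule serine protease of myeloid cells, had the smallest p, with 2.93, 3.56 and 5.06 TPM in WT and 0.944, 2.15 and 2.74 TPM in cKO (adjusted p = 0.511). Among protease inhibitors 18 were tested and 6 were above 0, with a median of -0.09. At an unadjusted p under 0.05 there was 1, against 8.51% of all genes tested. That median was -0.50 without cKO library 3 (3 above 0), -0.17 without WT library 1 and 0.05 without cKO library 1 (9 above 0), so no direction is given for the list. Cstb, the gene of the intracellular inhibitor cystatin B, was the highest at 894.4 to 1096 TPM, above Cst3 in all 6 libraries. Cst6, the gene of cystatin E/M, had the smallest p, at 0.27 on the log2 scale (SE 0.118, adjusted p = 0.561).

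None of the class II genes that these proteases serve passed the test. Of 10 genes 4 were above 0, and the median log2 fold change was -0.02, with 0 at an unadjusted p under 0.05. The median ran from -0.07, without WT library 1, to 0.03, without WT library 2. Cd74, the invariant chain gene, lay at 22748 ± 775 TPM in WT and 22578 ± 214 TPM in cKO (SD, n = 3 each; adjusted p = 0.938). The smallest p was that of H2-DMb1, a chain of the molecule that exchanges peptides on class II MHC. It lay at 330.3, 373.9 and 382.4 TPM in WT and at 407.5, 399.4 and 422.2 TPM in cKO, higher in each cKO library than in any WT library, by 0.15 on the log2 scale (SE 0.0872), and did not pass the test (adjusted p = 0.684).

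**Figure D5:**
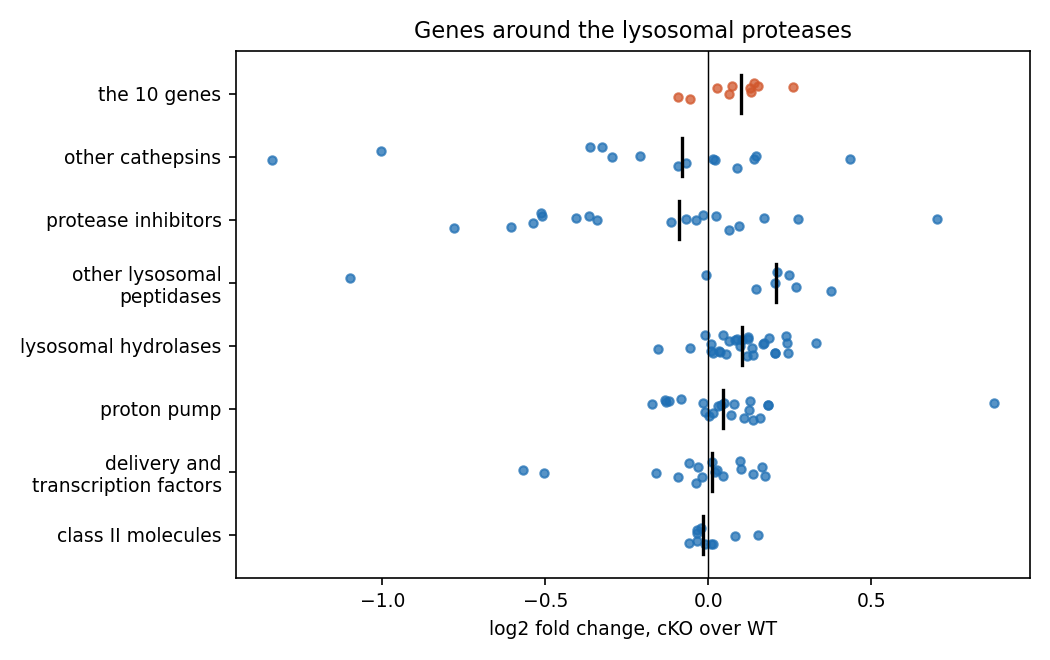
Log2 fold change, cKO over WT, of every tested gene (points) in the 10 genes and in 7 related lists, with a black bar at each list's median and a vertical line at 0; vertical scatter within a list is random. The medians run from -0.09 for protease inhibitors to 0.21 for other lysosomal peptidases, and no point passed the test.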

How the data were processed

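The deposited counts are whole numbers of reads for each gene in 6 libraries. TopHat2 2.1.1, SAMtools 1.9, Subread 2.0.1 and the build mm10 are listed in the submitters' processing notes. Per the file headers, featureCounts summed exons of Ensembl release 99 genes, ignored strand, and counted a read for each gene it overlapped. The deposited series table holds TPM values that the authors made; they matched counts per kilobase of all exon bases within 0.000834% for values over 1. TPM served for levels, sums and ratios, and counts for tests. The 51810 genes of that table had equal counts in both sources.

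Counts were fitted with edgeR 4.0.16 in R 4.3.3 (TMM scaling, filterByExpr, robust quasi-likelihood F test, no block). P-values were adjusted by Benjamini-Hochberg over the 28543 genes tested, with a threshold of 0.05. SE is of the log2 fold change, cKO over WT. The fit was first tested on simulated data. DESeq2 1.42.0, limma 3.58.1 (voom, and log2 of TPM plus 1 or 0.1), other scalings and filters, a replicate block and each library left out were alternatives. The labels do not say that libraries came from separate animals, so p-values measure the spread between these libraries, which may be technical. Libraries differed by more than sampling noise.

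The genes and lists were chosen with earlier results of these data known. Beyond the 10 genes, the rule named Trp53 and Cdkn1a, in each list the genes past the threshold (with or without a replicate block) or else the smallest p, the highest TPM in lists of other cell types, and the 3 genes nearest to Ctsd. H2-Aa, Psmb11, Csf1r, Fcgr1, Ctsa, Cstb and Cd74 were named after their values were seen. Cdkn1a, a p53 target, stood at -0.90 on the log2 scale, cKO over WT (SE 0.0782, adjusted p = 4.45e-04). Promoter windows came from RefSeq (GRCm38.p6). Mitochondrial genes (37) had no counts in any library. No per-sample columns were left unmapped.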

Additional observations from a re-analysis of the deposited data

How the results depend on the processing

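Under 17 alternatives, 0 of the 10 genes passed the test in each, and the smallest adjusted p of any of their 170 values was 0.168, for Ctss with a replicate block. The median log2 fold change of the 10 genes ran from 0.011 without WT library 1 to 0.139 without cKO library 1, and 10 of the 170 values had the opposite sign: 4 for Ctsc, 2 for Cst3 and 1 each for Ctsl, Ctsz, Lgmn and Ifi30, each with a library left out. The number of genes called over the whole table, 17, was 175 with DESeq2, 5 with limma-voom, 160 with no filter on low counts, 6 without robust estimation and 1 with the TPM values at either pseudocount; the cause was not tested. Leaving out each library in turn gave 6 to 16 genes, with 7 without WT library 1, 6 without WT library 3 and 7 without cKO library 2. Same-numbered libraries were weakly correlated in their deviations (0.1133, 0.0544 and 0.0755), each best with its own number, which is a hint from the data and not the design; with the replicate block 203 genes were called, 0 of the 10 among them, and the paired exact p of both ratios was 0.25, the smallest possible. Of 561 values of 33 other named genes, 547 kept their side of the threshold, 12 passed it only in the alternative, 2 (Cdkn1a with the TPM values) no longer passed it and 0 reversed. The lowest count of any of the 10 genes in a library was 703, far above the floor of 3.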

Other observations

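Some lists outside the lysosome had members that passed the test only in other fits (1 gene each in the cortical and red cell lists, up to 3 in the microfold list). The microfold calls came with DESeq2 (1) and the replicate block (3), the red cell call with the block and with no filter on low counts. Each of these fits called more genes over the whole table than the 17 (0.0596%) of the edgeR fit without a block, as given above. The cortical call came in these fits and with other scalings and filters. Foxn1, the transcription factor that thymic epithelium needs, lay at 139.8 ± 14.4 TPM in WT and 97.5 ± 8.06 TPM in cKO (SD, n = 3 each; log2 fold change -0.54, SE 0.0869, adjusted p = 0.0506 with edgeR), lower in every cKO library than in any WT library. The list of 10 microfold markers is of mimetic cells, medullary cells that resemble the antigen-sampling cells of gut epithelium. Of these genes 9 were above 0, against 49% of all genes tested, with a median log2 fold change of 0.32 and 0 called. Groups did not overlap for 3, all higher in cKO, against 7.2% of all genes in that direction. At an unadjusted p under 0.05 (edgeR) there were 3, all higher, against 4.28%. Their summed TPM was 3443 to 3643 in WT and 3771 to 4094 in cKO. The sum was not taken without its highest gene, Marcksl1. The chemokine gene Ccl6 lay at 54.74 ± 10.1 TPM in WT and 88.35 ± 18.7 TPM in cKO (SD, n = 3 each; adjusted p = 0.291), and Ccl9 and Ccl20 had adjusted p of 0.644 and 0.394 (edgeR). Among 6 red cell genes, Hba-a2, whose near-identical copy Hba-a1 can share its reads, lay at 77.13 ± 8.18 TPM in WT and 51.11 ± 12.6 TPM in cKO (SD, n = 3 each; adjusted p = 0.341).

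The mature medullary list of 11 genes had 0 calls, under the 17 alternatives too, and a median log2 fold change of -0.04. Of these genes 3 had an unadjusted p under 0.05, against 8.51% of all genes tested. Aire had a lower mean in cKO (adjusted p = 0.516, edgeR), with cKO library 1 the lowest at 495.2 TPM. The other cKO libraries lay at 705.3 and 680.0 TPM, against 704.1 to 861.2 TPM in WT. Epcam (adjusted p = 0.582) and Tnfrsf11a (adjusted p = 0.586, edgeR) had higher means in cKO. The macrophage, dendritic, B cell, thymocyte and stromal lists had 0 calls, under the 17 alternatives too. In these lists 0 to 2 genes a list had an unadjusted p under 0.05, against the same 8.51% of all genes. The smallest adjusted p was 0.54 for macrophages (Timd4), 0.479 for dendritic cells (Cd209a), 0.537 for B cells (Ebf1), 0.755 for thymocytes (Cd3e) and 0.454 for fibroblasts and endothelium (Col1a1), all with edgeR. In the thymocyte list the highest mean level was that of Cd4, at 11.49 to 16.67 TPM. In the B cell list, leaving out Ighm, which has counts but no TPM in the files used, Cd79b had the highest mean at 31.27 to 38.83 TPM. The highest means were those of Pdgfrb in the stromal list, at 18.87 to 27.23 TPM, and of Tbata in the cortical list, at 450.3 to 608.8 TPM.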
